A study of Mus musculus with 12 samples.

Results

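Microglia are the resident macrophages of the brain, and 33 genes that mark them or that they use to sense and clear debris were followed in the mouse frontal cortex. The genes were taken by symbol from a list chosen with earlier results of these data known. Of the 33, 32 were found among the 15191 genes of the authors' deposited gene table. The other one, Spi1, was not analysed here. The 7 markers set as defining for microglia (Aif1, Cx3cr1, P2ry12, Tmem119, Csf1r, C1qa and Itgam) were all listed. RNA came from 12 libraries of male C57BL/6 mice, 6 of the genotype Adar2-/- Gria2R/R and 6 of litter mates with the genotype Adar2+/+ Gria2R/R. ADAR2, the product of Adarb1, converts adenosine to inosine in double-stranded RNA. The Gria2R allele, present in knockout and control mice alike, encodes in the genome the arginine that editing otherwise creates in this AMPA receptor subunit. The labels give no age, litter or batch, and do not say whether tissue was pooled.

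The deposited tables hold the authors' means and p-values, with no value per library, so no spread between mice can be shown. In the gene table the conditions are headed A and B and carry no genotype. Levels are therefore given as the mean normalized read count over both conditions, and differences as the log2 ratio of A to B, which assigns neither direction to the knockout. Adarb1, the targeted gene, had a mean count of 4181 and a log2 difference of -2.21 in the authors' deposited gene table (adjusted p = 3.06e-126), and this was not used to name the conditions. The exon table names control and knockout itself. In bulk cortex, fewer microglia and less RNA per microglial cell cannot be told apart.

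Microglia arise from the yolk sac, depend on signalling through the receptor CSF1R, and are kept in their surveying state by neuronal and astrocytic cues. That state is marked by purinergic and chemokine receptors such as P2RY12 and CX3CR1. When they meet damage or microbial products, they use Toll-like receptors, Fc receptors and the TREM2-TYROBP pair, raise lysosomal proteases, and tag synapses or debris with the complement protein C1q. The transcription factor PU.1, encoded by Spi1, sets up this programme, in part together with IRF8.

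The promoters of the genes are shown where they hold the letters that PU.1 is known to bind, since this factor links the genes to each other. RefSeq promoters (build GRCm38.p6, 250 bases before to 50 bases after the start of the gene) were matched by symbol for 24 of the 33 genes, which gave 27 promoters. The letters GAGGAAGT, searched on both strands, were in 2 of the 27 promoters (7.41%) and in 3.2% of all 32851 promoters. The 7-letter core GAGGAAG, which lies within the first motif, was in 9 of the 27 (33.3%), from 8 genes, and in 13.6% of all. The composite element of PU.1 with an interferon regulatory factor, GGAA and GAAA with any pair of bases between them, was in 2 of the 27 (7.41%) and in 2.72% of all. These are matches of letters and do not show that a factor binds. The windows of 30 bases below run 5′ to 3′ on the strand of the gene, with the match or its reverse complement in capitals.
C1qc, PU.1 motif, chr4:136893091-136893120, minus strand: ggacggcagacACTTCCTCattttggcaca
Ctss, PU.1 motif, chr3:95526773-95526802, plus strand: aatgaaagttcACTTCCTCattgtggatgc
P2ry13, core, chr3:59210912-59210941, minus strand: caaggggaaatGAGGAAGgaaaagcagtat
Fcrls, core, chr3:87263650-87263679, minus strand: aagtctgtaaaGAGGAAGgacgtttgcttt
Itgam, core, chr7:128062545-128062574, plus strand: gttttctcccgGAGGAAGgctacagagggc
Laptm5, core, chr4:130913266-130913295, plus strand: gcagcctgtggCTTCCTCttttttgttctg
Trem2, core, chr17:48346349-48346378, plus strand: agcctcctttcCTTCCTCcctccctcacgc
Fcgr3, core, chr1:171059392-171059421, minus strand: gagtccatttcCTTCCTCtttttgtagttc
Fcgr2b, composite, chr1:170976087-170976116, minus strand: gaccgtttctTTTCACTTCCccatttggac
Cd68, composite, chr11:69666128-69666157, minus strand: aagtgaggctTTTCATTTCCtcttccaaga
The match began 195 bases before the start of C1qc, 2 before that of Ctss, 48 before that of P2ry13 and 144 before that of Fcrls. In Itgam, Laptm5 and Trem2 it began 84, 39 and 41 bases before the start, and in Fcgr2b 35 bases before it. Itgam held another core match, not shown, 31 bases inside the transcript. The Fcgr3 match lay 7 or 16 bases before the start, depending on which of its listed promoters is taken, and the Cd68 match lay 23 bases inside the transcript. Promoters with a match thus came from every group of genes described below.

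The 32 listed genes were close to equal in A and B, with a small shift towards A. None passed the threshold of 0.05 on the adjusted p, which was 1 for each of them in the authors' deposited gene table, where 3 of 15191 genes passed (0.0197%). The ratio was above 1 in condition A for 24 of the 32 genes (75.0%), against 52.9% of all listed genes. The median log2 difference was 0.09, against 0.01 over all listed genes, and the mean weighted by count was 0.07. The most distant members were Aif1, 1.21-fold higher in A, and Slc2a5, at 0.827 of its B level in A. One gene, Ctss, had an unadjusted p under 0.05, with the higher value in A, where 1.86% of all listed genes had such a p and 0.843% had it with the higher value in A. Members share cells and libraries and were chosen with earlier results of these data known. The count of genes in 1 direction is therefore a description of the deposited ratios and was not tested.

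**Figure D1:**
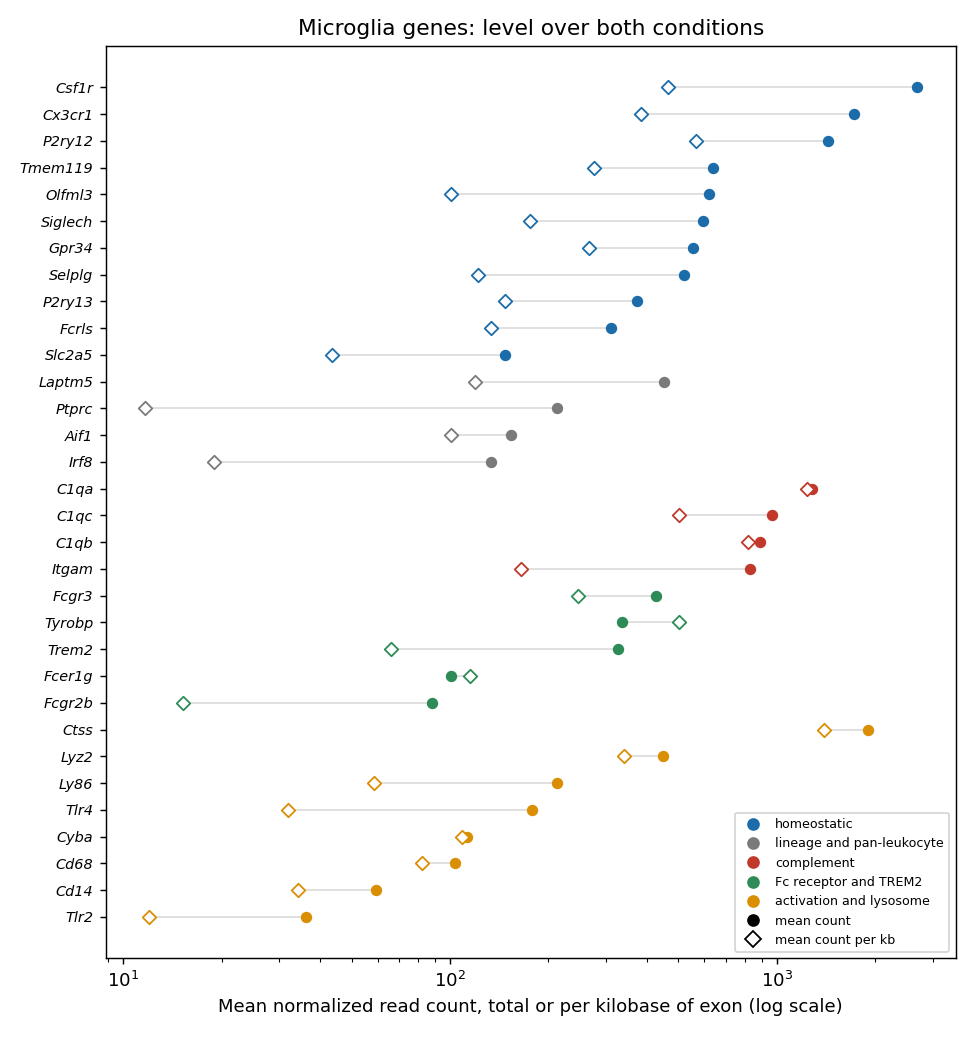
Mean normalized read count over both conditions of the 32 listed microglia genes (filled circles) and the same count per kilobase of exon (open diamonds), on a log scale and coloured by group. Csf1r has the highest mean count (2681) and Tlr2 the lowest (36.2), while per kilobase Ctss and C1qa lead.

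Homeostatic genes mark the surveying state, and all 11 of them were listed. Condition A was higher for 7 of the 11, with a median log2 difference of 0.04 and a count-weighted mean of 0.03. None had an unadjusted p under 0.05.

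Csf1r encodes the receptor for the growth factors CSF1 and IL-34 that keep microglia alive, and at a mean count of 2681 its log2 difference was 0.01 in the authors' deposited gene table (p = 0.876). P2ry12, a receptor for extracellular ADP that guides microglial processes to injury, had a mean count of 1436 and an A over B ratio of 0.999 in the authors' deposited gene table (p = 0.797). Tmem119, a membrane protein that separates microglia from blood-derived macrophages, had a mean count of 639 and a log2 difference of -0.03 in the authors' deposited gene table (p = 0.946). These 3 of the 7 defining markers were thus nearly equal in A and B. The rest, described below, were all higher in A, with log2 differences of 0.04 (Itgam), 0.09 (Cx3cr1), 0.12 (C1qa) and 0.28 (Aif1). None of the 7 had an unadjusted p under 0.05.

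Cx3cr1, the receptor for the neuronal chemokine fractalkine, had a mean count of 1725 and a log2 difference of 0.09 in the authors' deposited gene table (p = 0.333). An approximate 95% interval, built from the standard error that the deposited p implies, ran from -0.09 to 0.26. Such an interval includes 0 whenever the unadjusted p is over 0.05, so it gives a width and is no separate test. P2ry13, the neighbour of P2ry12 and also an ADP receptor, had a mean count of 373 and a log2 difference of 0.18 in the authors' deposited gene table (p = 0.118), with an interval from -0.05 to 0.40. Both intervals include 0. Fcrls, a scavenger receptor-like protein of rodent microglia, had a mean count of 311 and a log2 difference of 0.16 in the authors' deposited gene table (p = 0.261), with an interval from -0.12 to 0.43.

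Slc2a5, the fructose transporter GLUT5, went the other way, with a mean count of 148 and a log2 difference of -0.27 in the authors' deposited gene table (p = 0.142). Its interval ran from -0.64 to 0.09, and its mean count was the lowest of the group. Gpr34, a receptor for lysophosphatidylserine, had a mean count of 555 and a log2 difference of -0.04 in the authors' deposited gene table (p = 0.865). Siglech, a sialic acid-binding lectin, had a log2 difference of 0.05 in the authors' deposited gene table (mean count 594, p = 0.446). Olfml3, a secreted matrix protein, had one of 0.04 (mean count 621, p = 0.498), and Selplg, a ligand for selectins, one of 0.09 (mean count 519, p = 0.334), in the authors' deposited gene table. Homeostatic members therefore lay on both sides of 0.

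Lineage and pan-leukocyte genes were split evenly, 2 of the 4 listed being higher in A, with a median log2 difference of 0.03. Aif1, which encodes the actin-binding protein IBA1 used to stain microglia, had a mean count of 154 and a log2 difference of 0.28 in the authors' deposited gene table (p = 0.115). Its interval ran from -0.07 to 0.63, which spans 0. Irf8, a transcription factor that acts with PU.1, had a mean count of 134 and a log2 difference of -0.08 in the authors' deposited gene table (p = 0.669). Ptprc, the leukocyte phosphatase CD45, had a mean count of 213 and a log2 difference of 0.07 in the authors' deposited gene table (p = 0.654). Laptm5, a lysosomal membrane protein of blood-derived cells, had a mean count of 450.2 and a ratio of 0.998 in the authors' deposited gene table (p = 0.969).

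Complement genes were all on the A side, at 4 of 4, with a median log2 difference of 0.12 and a count-weighted mean of 0.11. C1qa, C1qb and C1qc encode the chains of C1q, which starts the classical complement pathway and in the cortex is made by microglia. C1qa had a mean count of 1284 and a log2 difference of 0.12 in the authors' deposited gene table (p = 0.109), with an interval from -0.03 to 0.26. C1qb had a mean count of 890.1 and a log2 difference of 0.13 in the authors' deposited gene table (p = 0.123), with an interval from -0.04 to 0.30. C1qc had a mean count of 966 and a log2 difference of 0.12 in the authors' deposited gene table (p = 0.134), with an interval from -0.04 to 0.27. The chains differed by nearly the same ratio (1.09, 1.10 and 1.08), their genes are neighbours on chromosome 4, and each interval includes 0. Itgam, the alpha chain of complement receptor CR3 that takes up C3-tagged material, was nearer to equal, with a mean count of 826 and a log2 difference of 0.04 in the authors' deposited gene table (p = 0.674).

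Fc receptor and TREM2 genes stood between, with 4 of 5 higher in A, a median log2 difference of 0.06 and a count-weighted mean of 0.08. TREM2 senses lipids and signals through the adaptor TYROBP, also called DAP12. Trem2 had a mean count of 326 and a log2 difference of 0.12 in the authors' deposited gene table (p = 0.199), with an interval from -0.06 to 0.30. Tyrobp had a mean count of 336 and a log2 difference of 0.14 in the authors' deposited gene table (p = 0.143), with an interval from -0.05 to 0.33. Receptor and adaptor thus had similar differences, neither with an unadjusted p under 0.05.

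Fcer1g, the gamma chain that serves as adaptor for activating Fc receptors, had a mean count of 101 and a log2 difference of 0.03 in the authors' deposited gene table (p = 0.907). Fcgr3, an activating receptor for immunoglobulin G, had a mean count of 427 and a log2 difference of 0.06 in the authors' deposited gene table (p = 0.686). Fcgr2b, the inhibitory receptor for immunoglobulin G, had a mean count of 88.0 and a log2 difference of -0.06 in the authors' deposited gene table (p = 0.622). Fcgr3 and Fcgr2b are similar in sequence, and the handling of reads shared between them is not given in the sources used here.

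Activation and lysosomal genes had 7 of 8 members higher in A, with a median log2 difference of 0.14 and a count-weighted mean of 0.16. Ctss, the protease cathepsin S of the lysosome and of antigen processing, had a log2 difference of 0.14 in the authors' deposited gene table (unadjusted p = 0.0489, adjusted p = 1). Its interval had a lower bound of 0.00069 and an upper bound of 0.29. Its mean count of 1894 was the larger part of the summed mean count of 3045 of the group. Lyz2, lysozyme of macrophages, had a mean count of 448 and a log2 difference of 0.27 in the authors' deposited gene table (p = 0.243), with an interval from -0.18 to 0.72. Lyz2 has a close copy, Lyz1, so its value is uncertain where reads fit both.

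Cd68, a lysosomal membrane protein used as a mark of phagocytic microglia, had a mean count of 103 and a log2 difference of 0.21 in the authors' deposited gene table (p = 0.333), with an interval from -0.22 to 0.64. Ly86, the partner of the Toll-like receptor homologue CD180, had a mean count of 213 and a log2 difference of 0.13 in the authors' deposited gene table (p = 0.447). Cyba, a chain of the phagocyte oxidase, had a mean count of 113 and a log2 difference of 0.12 in the authors' deposited gene table (p = 0.375). These 3 genes pointed the same way with wide error.

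The sensors of microbial products gave mixed values. Tlr4, the receptor for bacterial lipopolysaccharide, had a mean count of 178 and a log2 difference of 0.09 in the authors' deposited gene table (p = 0.606). Tlr2, the receptor for bacterial lipoproteins, had a mean count of 36.2, the lowest among the listed members, and a log2 difference of 0.27 in the authors' deposited gene table (p = 0.641). Cd14, the co-receptor of TLR4, had a mean count of 59.4 and a log2 difference of -0.04 in the authors' deposited gene table (p = 0.724).

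**Figure D2:**
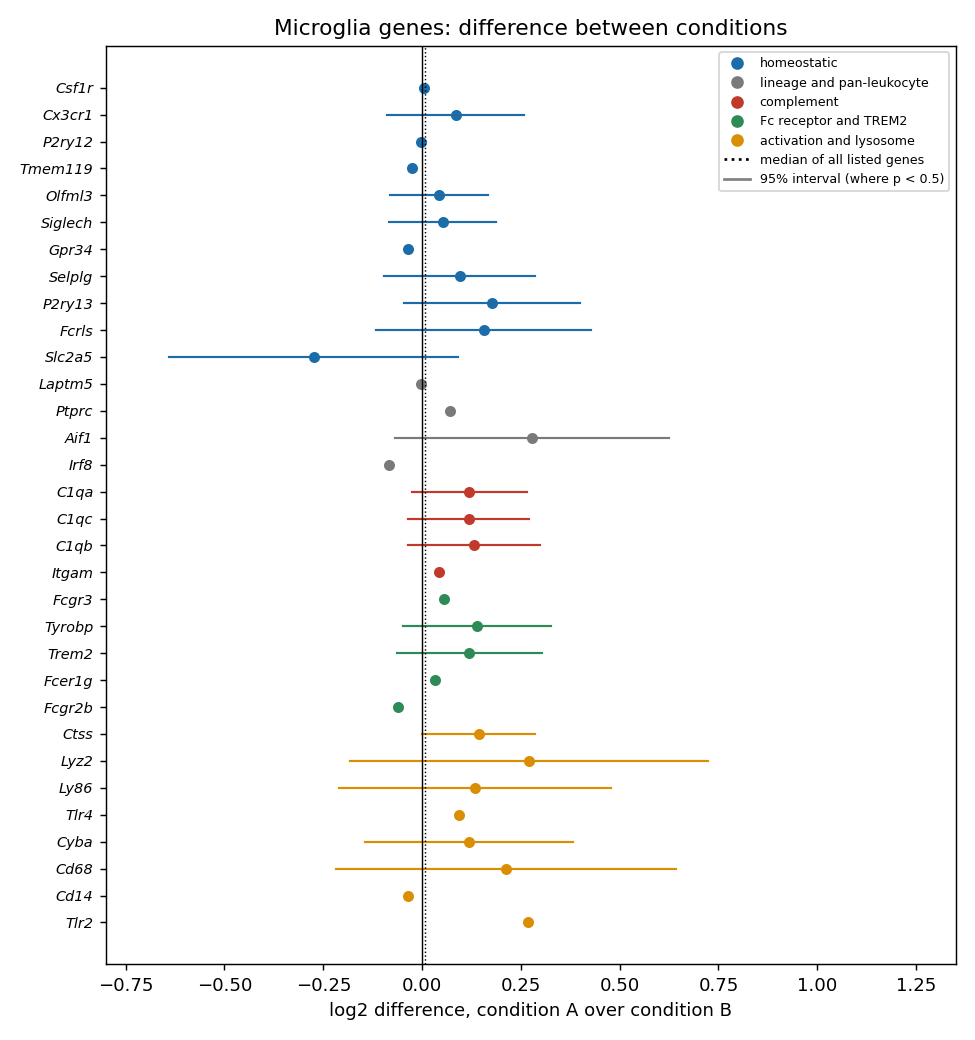
Log2 difference of condition A over condition B for each listed microglia gene, with approximate 95% intervals for the 18 genes whose deposited p was under 0.5, the solid line at 0 and the dotted line at the median of all listed genes. Only the interval of Ctss lies off 0, with a lower bound of 0.00069, and the points of the complement and activation genes sit mostly to the right of those of the homeostatic genes.

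Side by side, the median log2 difference was 0.04 for homeostatic, 0.12 for complement and 0.14 for activation genes, a gap of at most 0.10 between these groups. The gap was not tested. Without C1qb and C1qc the complement median was 0.08 over 2 genes, beside 0.04 for homeostatic and 0.14 for activation genes. Without members shared with other blood cells the 3 medians were 0.02, 0.12 and 0.14, over 10, 3 and 5 genes. Implied standard errors were taken only for the 18 members with a deposited p under 0.5, and ran from 0.0636 to 0.231 with a median of 0.0967. The error of the members with a larger p is not in this range. Of the 32 genes, 14 had a log2 difference above 0.1 towards A, 1 (Slc2a5) beyond 0.1 towards B, and 17 lay within 0.1. The shares of all listed genes past 0.1 were not computed, so these counts have no background to be read against. A deposited p under 0.2, a limit that was not planned, was found for 9 of the 32 members, against 9.47% of all listed genes. It came with the higher value in A for 8 of them, and the share of all genes in that direction was not computed. Of these 9, P2ry13 and Slc2a5 are homeostatic, Aif1 is a lineage gene, C1qa, C1qb and C1qc are complement genes, Trem2 and Tyrobp form the lipid-sensing pair, and Ctss is an activation gene.

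**Figure D3:**
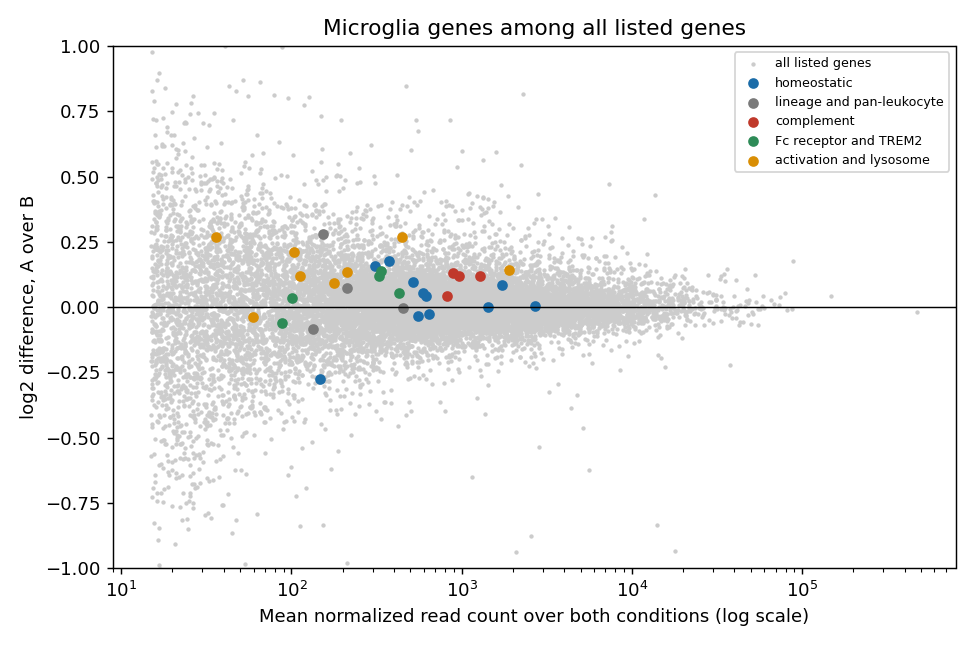
Log2 difference of A over B against the mean normalized count over both conditions (log scale) for all listed genes in grey and microglia genes in colour, with 33 genes lying beyond the vertical axis. Microglia genes sit inside the cloud of all genes at every count, more of them above 0 than below.

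Size of difference depends on the count. For the 13 members with a mean count from 100 to 400 the median absolute log2 difference was 0.13, against 0.08 for the 3189 listed genes of that range. For the 11 members from 400 to 1000 it was 0.05, as it was for the 3207 listed genes there. The 5 members at 1000 or more (P2ry12, Cx3cr1, Csf1r, C1qa and Ctss) had a median absolute log2 difference of 0.09, against 0.04 for 5893 listed genes. The 3 members under 100 (Tlr2, Cd14 and Fcgr2b) had one of 0.06, against 0.17 for 2902 listed genes.

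Levels of different genes were compared per kilobase of exon, with lengths from GENCODE M21, which may differ from the annotation the authors counted on. Per kilobase, the order was led by Ctss at 1395 and C1qa at 1235 mean counts, followed by C1qb at 818, P2ry12 at 564, Tyrobp at 504, C1qc at 500.4, Csf1r at 464 and Cx3cr1 at 383. Ctss and C1qa were above 94.3% and 93.4% of the 13253 listed genes with a length. At the low end stood Irf8 at 18.9, Fcgr2b at 15.2, then Tlr2, and Ptprc at 11.6 per kilobase, where the median of all listed genes with a length was 153. The C1q chains and several homeostatic receptors were thus among the more abundant transcripts of the set. Neighbours in this order such as Tyrobp and C1qc cannot be ordered, since no spread per library is given.

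Exons of 5 members overlap exons of another gene in GENCODE M21. P2ry12 lies against Med12l and Csf1r against Hmgxb3 on the opposite strand, with mean counts of 2390.1 for Med12l and 1932 for Hmgxb3 in the authors' deposited gene table. The library kit keeps strand, per the labels, but the strand setting of the counting is not given in the sources used here. For Med12l the log2 difference was 0.06 and for Hmgxb3 0.02 in the authors' deposited gene table. Cx3cr1, Fcgr2b and Itgam overlap predicted genes that were not analysed here. Without these 5 members, 21 of 27 were higher in A, with a median of 0.12.

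The signals that microglia receive were compared next. For this and each list below, the background over all listed genes was 52.9% higher in A and 1.86% with an unadjusted p under 0.05. No list was tested against it. Of 11 listed ligands and cues of 12 chosen, 9 were higher in A, with a median log2 difference of 0.05, and 0 had an unadjusted p under 0.05. Cx3cl1, which encodes fractalkine, had the lowest difference (-0.09) and Tgfb1, a cytokine that maintains the homeostatic state, the highest (0.20) in the authors' deposited gene table. The CSF1R ligands Csf1 and Il34 differed by 0.03 (p = 0.818) and 0.12 (p = 0.305) on the log2 scale in the authors' deposited gene table.

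Partners in the complement, ITAM and Toll-like receptor pathways were taken from lists chosen with earlier results of these data known. Of 16 listed complement pathway genes of 22 chosen, 13 were higher in A, with a median of 0.04, from C4a at -0.35 to C2 at 0.36 in the authors' deposited gene table, and 0 had p under 0.05. This list includes Sez6, Sez6l, Sez6l2 and Csmd1, all higher in A, with mean counts of 1091, 3491, 4556 and 6462 of a summed 20445. Which cells their reads come from was not tested, and 3 of the 16 genes were lower in A. C4a and C4b are close copies whose shared reads cannot be assigned here. Of 15 listed genes of 20 that act below ITAM receptors, which signal through tyrosine motifs, 9 were higher in A, with a median of 0.02, from Vav1 at -0.11 to Pik3cg at 0.22 in the authors' deposited gene table, and 0 had p under 0.05. Of 16 listed Toll-like receptor genes of 18, 11 (68.8%) were higher in A, with a median of 0.03, and 2 had p under 0.05. Over all listed genes these shares were 52.9% and 1.86%.

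Those 2 were Tlr7, a sensor of single-stranded RNA, and Cd180, the partner of the member Ly86. Tlr7 had a mean count of 123 and a log2 difference of 0.35 in the authors' deposited gene table (unadjusted p = 0.0372, adjusted p = 1). Cd180 had a log2 difference of 0.84 in the authors' deposited gene table (unadjusted p = 0.0458, adjusted p = 1), with a mean count near the lowest listed. Nfkbia, the inhibitor of NF-kappa-B, was at the low end of this list with -0.15 in the authors' deposited gene table. Neither Tlr7 nor Cd180 passed over all genes.

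Lysosomal and oxidase genes had 12 of 13 listed members (of 14) higher in A (92.3%, against 52.9% of all listed genes). Their median log2 difference was 0.06 and 0 had p under 0.05. They ran from Gusb at -0.01 to Cybb, the catalytic chain of the phagocyte oxidase, at 0.33 in the authors' deposited gene table. Genes raised in disease-associated microglia had 9 of 11 listed members (of 22) higher in A (81.8%), with a median of 0.10. In this list 1 gene had p under 0.05, against 1.86% of all listed genes. Gpnmb, a membrane glycoprotein of lipid-laden phagocytes, had a mean count of 47.3 and a log2 difference of 0.83 in the authors' deposited gene table (unadjusted p = 0.035, adjusted p = 1). Spp1, which encodes osteopontin, was the lowest at -0.17 in the authors' deposited gene table. The other 11 genes of this list, Cst7, Itgax, Clec7a, Il1b and Tnf among them, were not analysed here.

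A further 30 genes of microglia, all listed, had 20 higher in A and a median log2 difference of 0.07. Cd180 had the highest difference, given above, and was the 1 gene with p under 0.05. Sall1, a transcription factor of microglial identity, had a mean count of 324 and a log2 difference of 0.39 in the authors' deposited gene table (p = 0.642). The mean weighted by count was 0.01 for these 30 genes, against 0.07 for the 32 members. Cst3 alone, at a log2 difference of -0.04 in the authors' deposited gene table, held 17506 of the summed mean count of 40593 of the 30 genes. The 2 weighted means are therefore not alike, and the part of other cells in them was not tested.

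**Figure D4:**
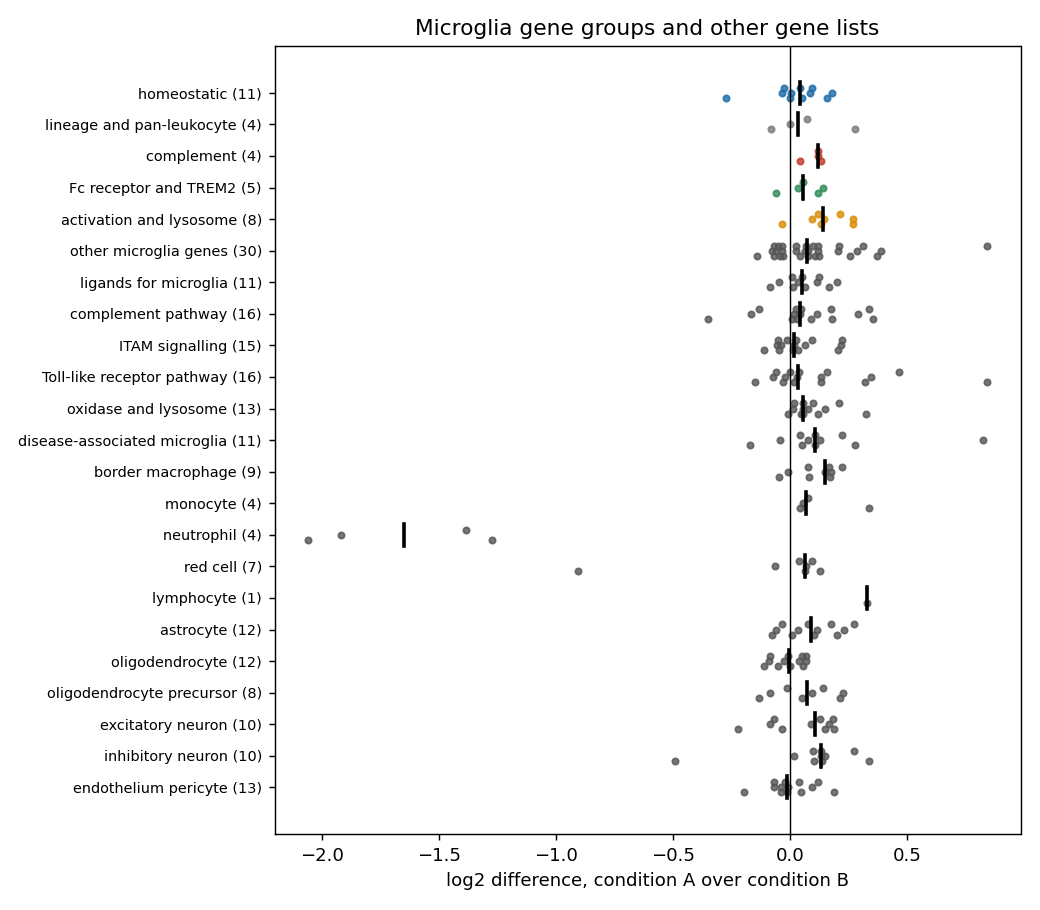
Log2 difference of A over B for each listed gene of the 5 microglia groups (coloured) and 18 other lists (grey), with the number of listed genes in brackets and the median as a vertical bar. Microglia medians lie between 0.03 and 0.14, those of the astrocyte, neuron and border macrophage lists between 0.09 and 0.15, and the 4 neutrophil genes lie far to the left.

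Markers of other cells were read the same way, with the summed mean count over both conditions as their level. Macrophages at the borders of the brain share many microglial genes. Of their 10 markers 9 were listed, with a summed mean count of 2021, 7 higher in A and a median log2 difference of 0.15, from Stab1 at -0.05 to F13a1 at 0.22 in the authors' deposited gene table. Of 9 monocyte markers 4 were listed, with a summed mean count of 3801, all higher in A, and a median of 0.07, from Ccr2 at 0.04 to Fn1 at 0.34 in the authors' deposited gene table. Fn1, which vessel cells make as well, held 2738 of that sum and Vcan 993, while S100a4 held 35.3 and Ccr2 34.1. Of 12 lymphocyte markers 1 was listed, Lck, at a mean count of 35.3 and a log2 difference of 0.33 in the authors' deposited gene table. The part of these cells in the microglia values was not tested.

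Neutrophil markers went the other way: 4 of 10 were listed, with a summed mean count of 115, all lower in A, and a median of -1.65. S100a8 stood at -1.27 and Ngp at -2.06 in the authors' deposited gene table, with p of 0.342 and 0.121. Of 7 red cell markers 5 were higher in A and the median was 0.06, from Slc4a1 at -0.91 to Hba-a2 at 0.13 in the authors' deposited gene table. Blood cells express Ptprc, Lyz2, Cyba, Laptm5, Cd14, Fcgr2b, Itgam and Selplg too, and without these 8 members 19 of 24 were higher in A, with a median of 0.11.

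Other cells of the cortex showed shifts of like size. Astrocyte markers, with a summed mean count of 163409, had 9 of 12 higher in A with a median of 0.09, from Gja1 at -0.08 to Gfap at 0.27 in the authors' deposited gene table. Excitatory neuron markers, with a sum of 64591, had 6 of 10 higher in A with a median of 0.11, from Neurod6 at -0.22 to Tbr1 at 0.19 in the authors' deposited gene table. Inhibitory neuron markers, with a sum of 22989, had 9 of 10 higher in A with a median of 0.13, from Dlx2 at -0.49 to Gad2 at 0.34 in the authors' deposited gene table. The microglia median of 0.09 lay beside these medians, and the part of tissue composition in it was not tested.

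Other lists were centred nearer to 0 than the microglia genes. Oligodendrocyte markers, with a summed mean count of 26922, had 5 of 12 higher in A with a median of -0.0045, from Mog at -0.11 to Mobp at 0.07 in the authors' deposited gene table. Endothelium and pericyte markers, with a sum of 15654, had 5 of 13 higher in A, with a median of -0.01 and a count-weighted mean of 0.03, which differ in sign. They ran from Kcnj8 at -0.20 to Slc2a1 at 0.19 in the authors' deposited gene table. Markers of oligodendrocyte precursors, with a sum of 5094, had 5 of 8 higher in A with a median of 0.07, from Sox10 at -0.13 to Cspg4 at 0.23 in the authors' deposited gene table. No marker of any of these 11 cell lists had an unadjusted p under 0.05.

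Exon usage of the members was compared between named genotypes. Bins are parts of exons, and a bin value describes its share of the reads of its gene, not the level of the gene. The deposited exon log2 ratio is control over knockout, and its sign was turned here to give knockout over control. The exon table held 177 bins of 31 members. Olfml3 and Spi1 bins were not analysed here. None of the 177 bins passed an adjusted p of 0.05, where 0.00738% of all 149137 tested bins did, and 1 bin (0.565%) had an unadjusted p under 0.05, against 1.67% of all tested bins. Of the 177 bins, 87 (49.2%) were higher in the knockout, against 50.3% of all tested bins, and the median log2 difference of knockout over control was 0.00. As bin values are shares within a gene, a split near even follows largely from the measure.

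The 1 bin was E001 of Fcer1g, with a mean normalized count of 79.3 and a log2 difference of -0.19 for knockout over control in the authors' deposited exon table (unadjusted p = 0.0486, adjusted p = 1). The other listed bin of Fcer1g, E005, had a mean count of 22.2 and a log2 difference of 0.27 in the authors' deposited exon table (p = 0.239). The level of the whole gene had a log2 difference of 0.03 for A over B, as given above.

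Members with many bins allowed a closer look at usage along the gene. Itgam had 34 bins with log2 differences from -0.28 to 0.37, and the smallest p among them was 0.0516. Csf1r had 23 bins, from -0.24 to 0.21, with a smallest p of 0.0579, and Laptm5 had 15, from -0.25 to 0.30, with a smallest p of 0.0719. Siglech had 12 bins from -0.14 to 0.21, Fcrls 9 from -0.16 to 0.16, and Ctss 8 from -0.09 to 0.12. In each of these genes the bins lay on both sides of 0. Shares within a gene largely balance each other, so this follows mostly from the measure.

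Bins of P2ry12, C1qa and Tmem119 were close to equal. In the authors' deposited exon table the main P2ry12 bin, E002, had a mean count of 1312 and a log2 difference of 0.0016, and E003 one of -0.01. The same table gave -0.04, 0.01 and 0.06 for the C1qa bins E001, E002 and E003, and the Tmem119 bins E001 and E002 both had 0.02. The members Cd14, Irf8, P2ry13, Ptprc, Tlr2 and Tlr4 had 1 listed bin each, so usage along these genes could not be compared.

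**Figure D5:**
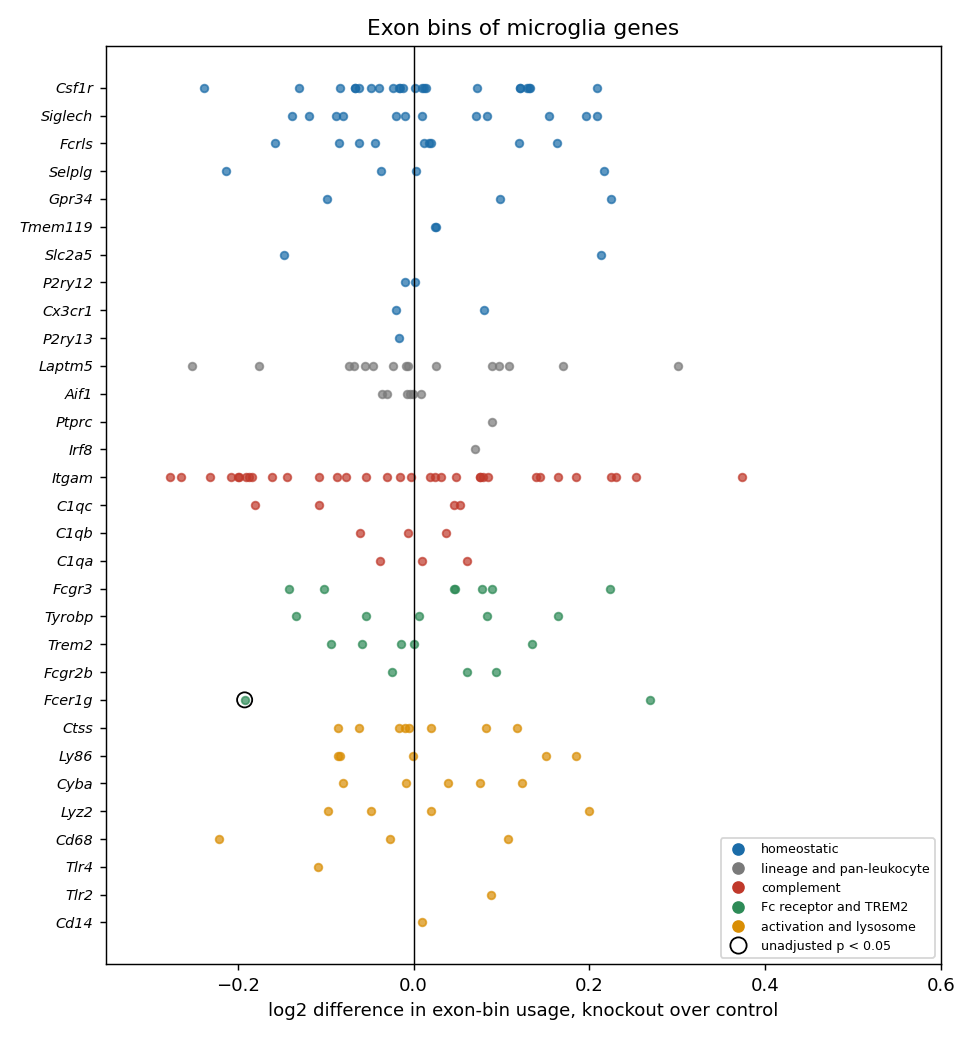
Log2 difference of exon-bin usage, knockout over control, for each of the 177 bins of 31 microglia genes, 1 row per gene and coloured by group. Bins lie on both sides of 0 in every gene with several bins other than Tmem119, whose bins are both at 0.02. For shares within a gene this follows largely from the measure. The bins of Itgam run from -0.28 to 0.37, and the circled bin is E001 of Fcer1g at -0.19.

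RNA editing, the direct product of ADAR2, was not listed for these genes. None of the 143 sites in the authors' deposited editing table lay in any of the 33 genes, by symbol. Coverage of unlisted positions is unknown, so this says only that the table lists no such site.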

How the data were processed

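RNA from mouse frontal cortex was sequenced in 12 libraries, extracted with Trizol and prepared with a stranded total RNA kit after ribosomal RNA removal, per the labels. Tools named without roles in the submitters' processing notes are DESeq, HTSeq, SAMtools 01.19.0, TopHat2 2.0.6 and Bowtie2 2.02.0, with the build mm9. The 3 deposited tables hold the authors' comparisons: mean normalized counts (a signal scaled by the authors), the deposited ratio and log2 ratio, and deposited p-values per gene and exon bin, the bin's deposited dispersion score, and the deposited percent edited with a position on mm9 per site, another deposited value. Depth per library is unknown, and listed genes start at a mean count of 15.0 and bins at 20.0. Another 2 columns, means headed A and B with no genotype, were not used. The deposited B over A ratio was inverted to A over B, and the exon table's control over knockout log2 ratio to knockout over control.

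Members, groups and lists were chosen with earlier results of these data known. P-values were used as deposited, adjusted over all genes or bins, with a threshold of 0.05. The standard error was taken as the size of the log2 difference over the normal quantile of p, for p under 0.5 only, a limit set after the values were seen, because near a difference of 0 the quotient carries no information. The code of this step and of the Benjamini-Hochberg adjustment was run on simulated data. The simulated p-values were made with the same normal formula, so this checks the arithmetic only. Whether the deposited p-values follow that formula was not tested, and the intervals stay approximate. The text names all members, and of each other list the extremes and any gene with p under 0.05; other genes named, such as Sall1, Csf1, Il34, Ccr2 and the bins of P2ry12, C1qa and Tmem119, were chosen after their values were seen, and some genes are not reported here. Several spellings of the PU.1 and composite motifs were searched before 3 were kept. Bins were given symbols through their Ensembl IDs, which matched for 12642 of 13536 genes. Python 3.11.15, pandas 2.3.3 and scipy 1.17.1 were used.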

Additional observations from a re-analysis of the deposited data

How the results depend on the processing

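No microglia gene and no exon bin of one passed under any alternative run: an adjusted p under 0.1, Benjamini-Hochberg adjustment over the listed genes or bins, and a minimum mean count of 100 for genes or 50 for bins each gave 0. At an unadjusted p under 0.05, 1 gene and 1 bin were found. The count of genes higher in condition A was 24 of 32, and 14 when a log2 difference over 0.1 was asked for. It was 23 of 29 with a mean count of at least 100. The median log2 difference of 0.09 lay between 0.07 (mean weighted by count) and 0.12 (without members that overlap another gene) under the 7 alternatives run. The median of the complement group alone moved from 0.12 to 0.08 without C1qb and C1qc. Leaving out the overlapping members, leaving out C1qb and C1qc, and the weighting were chosen after seeing the data. The planned ratio of summed means and the pseudocount were not run, as they need means per condition, whose columns name no genotype. No paired analysis was possible because the tables hold no values per library, and for the same reason no library could be left out, no other normalization tried and no spread shown. Whether the sum of small differences of members that share cells exceeds the variation between mice was not tested.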
